A study of Homo sapiens with 6 samples.

Results

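EHF (Ets homologous factor) is an ETS-family transcription factor of epithelial cells, and the peaks described here are those EHF binding sites that met 2 histone marks of enhancers at once. They were chosen by the interval lists themselves: a peak of EHF replicate 2 was taken when it shared at least 1 bp with an H3K27ac region and at least 1 bp with an H3K4me1 region, with the stretch of chromosome 17 from 37.5 to 39.0 Mb left out. This gave 291 of 5172 peaks, or 5.63% (exact 95% interval 5.01% to 6.29%), which are called both-mark peaks below. Of the 44 peaks in the omitted stretch, 0 met both marks, so its omission removed none. All measurements came from Calu-3, an established human lung adenocarcinoma line used as a model of airway epithelium, with no treatment named in the labels. Chromatin was precipitated with an antibody to EHF (2 replicate libraries), to H3K27ac (1 library) or to H3K4me1 (1 library), and each list was called against an input library of the same line. By the labels, the groups differ in what was precipitated, so the comparisons are between classes of peaks and not between conditions.

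H3K4me1 is laid down at enhancers, both poised and active, while H3K27ac is added where enhancers and promoters are active. Marked nucleosomes usually flank the DNA that a transcription factor occupies, so an enhancer often appears as a pair of marked shoulders around the binding site. ETS factors read a short core motif within DNA that such nucleosomes leave accessible. EHF is best known in airway and other lining epithelia, where it takes part in differentiation and in the response to injury.

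The EHF libraries held 8418631 tags in replicate 2 and 10176290 in replicate 1, and 0.740% and 0.155% of these lay in called peaks. The H3K27ac and H3K4me1 libraries held 21426939 and 12989646 tags. The score of an interval is the authors' own tag count, scaled to 10000000 tags per library, and carries no error. The median both-mark peak had a score of 12, which stands for about 10.1 tags of replicate 2, so single scores are imprecise. Nothing in the labels states that the 2 EHF libraries came from separate cultures, both were called against one shared input, and each mark rests on 1 library. Intervals below therefore cover counting error over positions in these libraries only. The coordinates are those of hg19. Genes, gene starts, cell type markers and base sequence at the peaks were not analysed here, because no annotation or genome of that build was used.

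The label "covered by both marks" held for most both-mark peaks but not for all. Of the 291 peaks, each 125 bp long, 183 lay wholly inside regions of both marks, and 219 (75.3%) had their centre inside both. H3K27ac was seldom the limiting mark, since 272 peaks lay wholly within it. H3K4me1 was: 189 peaks (64.9%) lay wholly inside an H3K4me1 region and 102 (35.1%) straddled its edge, 67 of them with the centre outside it. The 11 peaks just inside the rule, with 1 to 10 bp of H3K4me1, had scores of 8 to 17 and a median of 13, and 3 of them were found in replicate 1. The 17 peaks just outside it, in H3K27ac and 1 to 10 bp short of H3K4me1, had scores of 10 to 45 and a median of 14, and 3 were found in replicate 1.

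Within H3K27ac regions, EHF peaks were sparser on DNA that also carried H3K4me1 than on DNA that did not. In replicate 2, which the rule used and which is given as a description, there were 22.1 peak centres per Mb of both-mark DNA (exact Poisson 95% interval 19.2 to 25.2; 219 centres in 9.93 Mb), against 54.5 per Mb of DNA with H3K27ac alone (52.5 to 56.5; 2990 centres in 54.9 Mb). In replicate 1, which the rule did not use, the densities were 8.46 per Mb of both-mark DNA (6.75 to 10.5) and 14.8 per Mb with H3K27ac alone (13.8 to 15.8). The ratio of both-mark DNA over H3K27ac DNA alone was 0.40 in replicate 2 and 0.57 in replicate 1, where its exact conditional 95% interval of 0.45 to 0.72 did not reach 1. DNA with H3K4me1 but no H3K27ac held 7.82 centres per Mb in replicate 2 and 2.85 per Mb in replicate 1, fewer than both-mark DNA in either list. Both-mark DNA thus stood between the other classes in EHF peak density in both replicates.

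Pooled over H3K4me1 regions of all widths, the density changed with the distance from the H3K4me1 edge. In replicate 2, H3K27ac DNA 1000 bp or more inside an H3K4me1 region held 54.1 centres per Mb (95% interval 33.5 to 82.7, 21 centres), and DNA 500 to 1000 bp inside held 41.1 (30.7 to 53.8). The density was 14.2 per Mb at 250 to 500 bp inside (9.82 to 19.8) and 19.1 at 0 to 250 bp inside (15.7 to 22.9). Immediately across the edge it was 71.1 per Mb at 0 to 250 bp outside (63.7 to 79.1) and 88.6 at 250 to 500 bp outside (79.4 to 98.6). Farther than 2000 bp from any H3K4me1 region it was 46.6 per Mb (44.3 to 49.0). In this pooled profile EHF peaks were dense beside H3K4me1 regions and sparser in the first 500 bp inside them. The profile sets the edges of narrow and wide regions against the interiors of wide ones alone.

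From 1000 bp inside to 500 bp outside, the zones had the same order in replicate 1. Its DNA beyond 2000 bp held fewer peaks per Mb than the interior zones, but within overlapping intervals. Its densities were 20.6 centres per Mb at 1000 bp or more inside (8.90 to 40.6, 8 centres), 14.2 at 500 to 1000 bp inside (8.42 to 22.5), 5.84 at 250 to 500 bp inside (3.19 to 9.80) and 7.49 at 0 to 250 bp inside (5.44 to 10.05). Outside, they were 26.8 at 0 to 250 bp (22.3 to 31.9), 27.7 at 250 to 500 bp (22.7 to 33.5) and 11.2 beyond 2000 bp (10.1 to 12.4). The intervals of the outermost 250 bp inside and of the first 250 bp outside did not overlap in replicate 1. The interior intervals are wide in replicate 1, and both interior zones overlapped the outer 250 bp in their intervals.

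**Figure D1:**
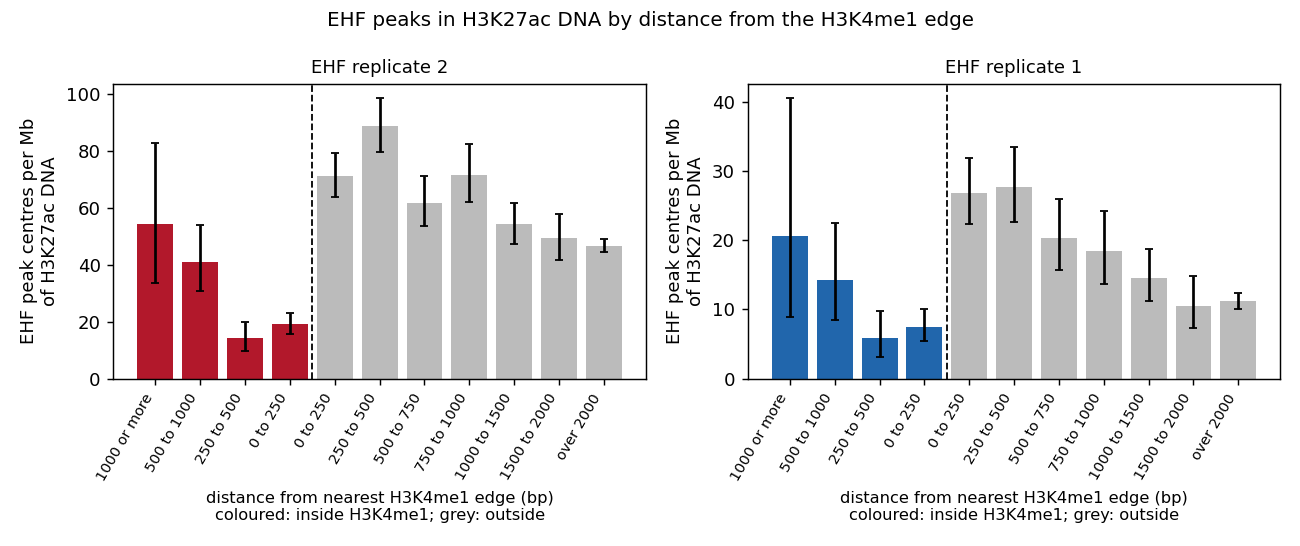
EHF peak centres per Mb of H3K27ac DNA (vertical axes) in zones of distance from the nearest H3K4me1 edge (horizontal axes, bp), for EHF replicate 2 on the left and replicate 1 on the right. Coloured bars are zones inside H3K4me1, grey bars zones outside, the dashed line is the edge, and error bars are exact Poisson 95% intervals. In replicate 2 the lowest bar is 14.2 per Mb at 250 to 500 bp inside and the highest 88.6 per Mb at 250 to 500 bp outside.

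Depth inside a region and width of the region go together, because only wide regions have a deep interior, so the zones were also split by H3K4me1 width. H3K4me1 regions of 501 bp, the smallest called, held 11.3 replicate 2 centres per Mb of their H3K27ac DNA within 250 bp of the edge (7.63 to 16.1) and 3.77 replicate 1 centres (1.81 to 6.93). In regions over 1000 to 2000 bp wide, the replicate 2 densities were 44.3 at 500 bp or more inside (30.7 to 62.0), 18.5 at 250 to 500 bp (11.2 to 28.9) and 34.7 at 0 to 250 bp (23.7 to 49.0). In the 809 regions over 2000 bp wide they were 44.0 (31.3 to 60.1), 12.5 (2.57 to 36.4, 3 centres) and 61.6 (32.8 to 105, 13 centres). In replicate 1 the same regions over 2000 bp held 20.3 per Mb at 500 bp or more inside (18 centres), 8.31 at 250 to 500 bp (2 centres) and 14.2 at 0 to 250 bp (3 centres). In the regions over 1000 to 2000 bp wide, the replicate 1 densities in the same order were 10.4 (8 centres), 8.78 (9 centres) and 13.0 (12 centres). In the outer 250 bp, density thus rose with the width of the H3K4me1 region in both replicates. Regions over 501 and up to 1000 bp wide held 17.7 there in replicate 2 and 9.08 in replicate 1. In replicate 1 the intervals of the narrowest and widest classes overlapped (1.81 to 6.93 and 2.93 to 41.5). At 500 bp or more inside, the 2 wide classes were alike in replicate 2 (44.3 and 44.0) and held 10.4 and 20.3 in replicate 1. Within a width class the intervals of the interior and of the outer 250 bp overlapped in both replicates. In regions over 1000 bp wide, the lowest zone was the one at 250 to 500 bp inside, with 19 and 3 replicate 2 centres in the 2 width classes. Its interval overlapped that of the zone at the edge in both classes. In regions over 1000 to 2000 bp wide, its replicate 2 interval (11.2 to 28.9) lay below that of the zone 500 bp or more inside (30.7 to 62.0). These intervals overlapped in the regions over 2000 bp wide, and in both classes in replicate 1.

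Taken by width as a whole, the contrast with H3K27ac DNA elsewhere was detectable in replicate 1 for the narrowest H3K4me1 regions and not for those over 1000 bp. H3K4me1 regions of 501 bp had a density ratio of 0.22 in replicate 2 (0.15 to 0.32) and 0.26 in replicate 1 (0.13 to 0.49), set against all other H3K27ac DNA. For regions over 2000 bp the ratios were 0.83 (0.62 to 1.08) and 1.25 (0.79 to 1.89), on either side of 1. Regions over 1000 to 2000 bp lay between, at 0.62 (0.50 to 0.77) and 0.77 (0.51 to 1.11).

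The contrast between both-mark DNA and DNA with H3K27ac alone was also taken by the level of H3K27ac. The H3K27ac regions were divided into 4 equal classes by score per kb. In the highest class (40.1 to 323), the replicate 2 densities were 27.5 per Mb of both-mark DNA and 76.6 per Mb with H3K27ac alone, a ratio of 0.36 (0.30 to 0.43), and the replicate 1 ratio was 0.50 (0.36 to 0.67). In the class below it the ratios were 0.41 (0.30 to 0.54) and 0.63 (0.39 to 0.98), and in the second-lowest class 0.55 (0.36 to 0.80) and 0.62 (0.26 to 1.29). In the lowest class (11.2 to 20.4) no contrast was detectable: the densities were 13.3 and 14.1 per Mb in replicate 2, a ratio of 0.95 (0.50 to 1.68), and the replicate 1 ratio was 2.11 on 6 both-mark centres (0.67 to 5.66). The ratio was also taken by width of the H3K27ac region, in 4 classes from narrow to wide. In replicate 2 the ratio was 0.858 in the narrowest class, with an interval that included 1. In the wider classes it was 0.428 (0.294 to 0.603), 0.349 (0.251 to 0.472) and 0.407 (0.336 to 0.488), each interval below 1. The replicate 1 ratios were 1.36 (0.45 to 3.47), 0.70 (0.34 to 1.31), 0.69 (0.42 to 1.09) and 0.48 (0.35 to 0.65). In replicate 1 the interval thus lay below 1 only in the widest class. Whether the ratio differs between classes was not tested.

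Of the 291 peaks, 46 (15.8%) shared their H3K27ac region with another replicate 2 peak of any class. The both-mark peaks lay in 284 H3K27ac regions and 287 H3K4me1 regions, so few of them shared a region with each other. Their H3K27ac regions had a median width of 2543 bp (quartiles 1342 and 4640 bp), against 2809 bp for EHF peaks in H3K27ac that had H3K4me1 within 2000 bp but not over them (flanked peaks, 1437), 2030 bp for those with no H3K4me1 within 2000 bp (distant peaks, 1581), and 1369 bp for all H3K27ac regions. The H3K27ac score per kb had a median of 43.2 at both-mark peaks, 50.1 at flanked peaks, 45.0 at distant peaks and 27.9 over all H3K27ac regions. The H3K4me1 regions under both-mark peaks had a median width of 1105 bp (632 and 1820 bp), compared with 501 bp for all H3K4me1 regions, and 26.6 score units per kb compared with 23.2. A wider region is easier to meet by 1 bp, and the rule chose on these lists, so these widths and levels describe the peaks and were not tested.

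In 175 cases (60.1%) the whole H3K4me1 region lay inside the H3K27ac region, in 16 the H3K27ac region lay inside the H3K4me1 region, in 99 they overlapped in part, and in 1 the peak bridged 2 regions that did not overlap. The H3K27ac region held 1 H3K4me1 region in 209 cases, several in 81 and none in the 1 bridged case. For the 219 peaks with their centre in both marks, the centre lay a median of 238 bp inside the nearer H3K4me1 edge (quartiles 102 and 607 bp) and 803 bp inside the nearer H3K27ac edge (436 and 1368 bp). Only 21 peaks had their centre 1000 bp or more inside H3K4me1. Across the nearer H3K4me1 edge, a further H3K4me1 region began within 1000 bp at 15 of the 102 straddling peaks (14.7%) and at 6 of the 189 enclosed ones (3.17%), so a minority of the straddling peaks sat in a gap between neighbouring H3K4me1 regions.

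**Figure D2:**
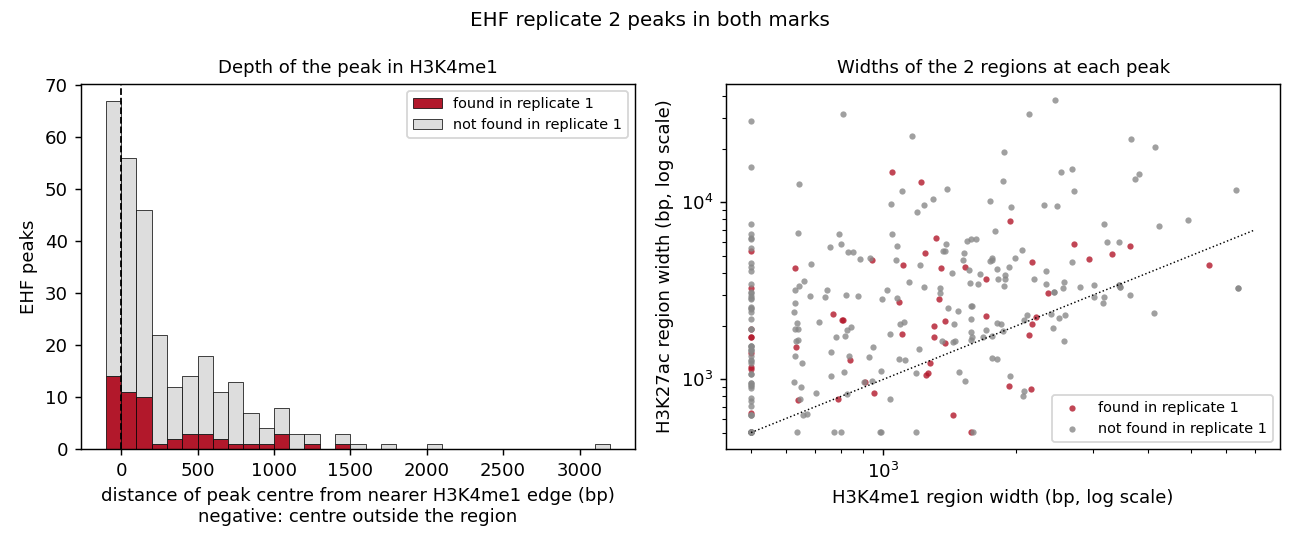
Left, number of both-mark EHF peaks (vertical axis) by the distance of the peak centre from the nearer H3K4me1 edge (horizontal axis, bp, negative where the centre lies outside), stacked as found in replicate 1 (red) and not found (grey). Right, width of the H3K27ac region against width of the H3K4me1 region at each peak, both in bp on log axes, with a dotted line at equal widths; 234 of 291 peaks have the wider region in H3K27ac, and the column at the left edge holds the 65 peaks in H3K4me1 regions of 501 bp.

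Replicate 1 was not used to choose the peaks and gave the measure of their recurrence. Of the 291 both-mark peaks, 54 overlapped a replicate 1 peak, or 18.6% (exact 95% interval 14.3% to 23.5%), against 14.8% of all 5172 replicate 2 peaks. The share was 20.3% for flanked peaks, 15.5% for distant peaks, 9.60% for the 125 peaks in H3K4me1 alone and 9.49% for the 1738 peaks in neither mark. Both-mark peaks recurred more often than peaks in neither mark, by 9.06 percentage points (Newcombe 95% interval 4.76 to 14.1), and more often than peaks in H3K4me1 alone, by 8.96 points (1.36 to 15.3). They did not differ detectably from flanked peaks, at -1.76 points (-6.35 to 3.50), from distant peaks, at 3.06 points (-1.40 to 8.21), or from both of these together, at 0.76 points (-3.52 to 5.81). Peaks are not replicates, and these intervals treat them as independent. Among peaks with a score of at least 12, the difference from peaks in neither mark was 5.97 points, and its interval of -0.43 to 13.3 included 0.

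Recurrence went with the score in every class. Of the 20 both-mark peaks with a score of 24 or more, 16 were found in replicate 1, or 80.0% (56.3% to 94.3%), compared with 60.3% of 151 flanked peaks, 52.5% of 99 distant peaks and 43.1% of 58 peaks in neither mark. The class has no upper limit, and its median score was 29.5 for both-mark peaks, 27 for flanked, 26 for distant and 27 for unmarked peaks, so the scores were not fully matched. The difference was 36.9 points from peaks in neither mark (11.8 to 53.8), 27.5 from distant peaks (3.85 to 42.9) and 19.7 from flanked peaks (-3.12 to 34.1). At scores of 15 to 23 the share of both-mark peaks was 24.6% (15 of 61), at 11 to 14 it was 12.6% (18 of 143) and at 6 to 10 it was 7.46% (5 of 67). In these 3 lower classes the interval of each difference from flanked, distant and unmarked peaks, and from peaks in H3K4me1 alone, included 0. The compared peaks were also weighted to the scores of the both-mark peaks. The shares were then 18.4% for flanked peaks, 16.0% for distant peaks, 11.2% for peaks in H3K4me1 alone and 12.4% for peaks in neither mark.

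**Figure D3:**
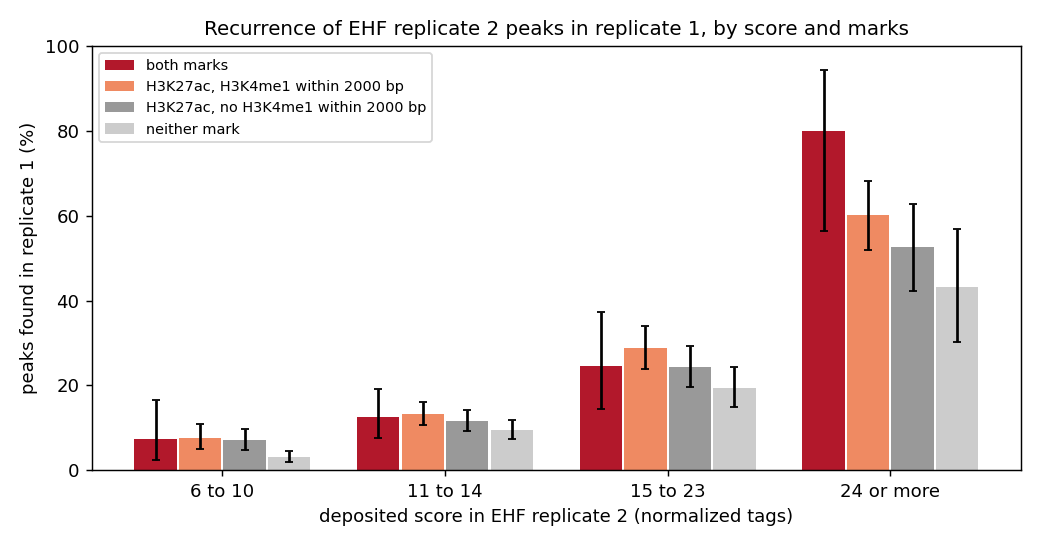
Share of EHF replicate 2 peaks found in replicate 1 (vertical axis, %) by the deposited replicate 2 score (horizontal axis, normalized tags) for both-mark peaks and 3 other classes of peaks. Error bars are exact 95% binomial intervals. The both-mark bar at a score of 24 or more stands at 80.0% on 20 peaks, and in the lower score classes the bars of the H3K27ac classes overlap in their intervals.

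The 54 both-mark peaks found in both lists had replicate 2 scores of 7 to 46 with a median of 16, and the 237 not found had scores of 7 to 39 with a median of 12. The replicate 1 scores of the 54 had a median of 11 (quartiles 9 and 13.75) and a maximum of 28. In 43 of them the score was higher in replicate 2, in 10 it was lower and in 1 it was equal. The median gap between the centres of a peak and its replicate 1 partner was 21 bp, and 43 gaps were within 50 bp. Across the 54 sites the scores of the replicates were correlated with rho = 0.48 (Spearman) and r = 0.56 (Pearson), given as a description, since the sites share their libraries. The 34 enclosed peaks found in both had replicate 1 scores of 7 to 20 with a median of 11, and the 20 straddling ones 7 to 28 with a median of 13. Enclosed and straddling peaks recurred at 18.0% and 19.6%, so that contact with the edge made no detectable difference (enclosed minus straddling -1.62 points, Newcombe 95% interval -11.6 to 7.32).

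**Figure D4:**
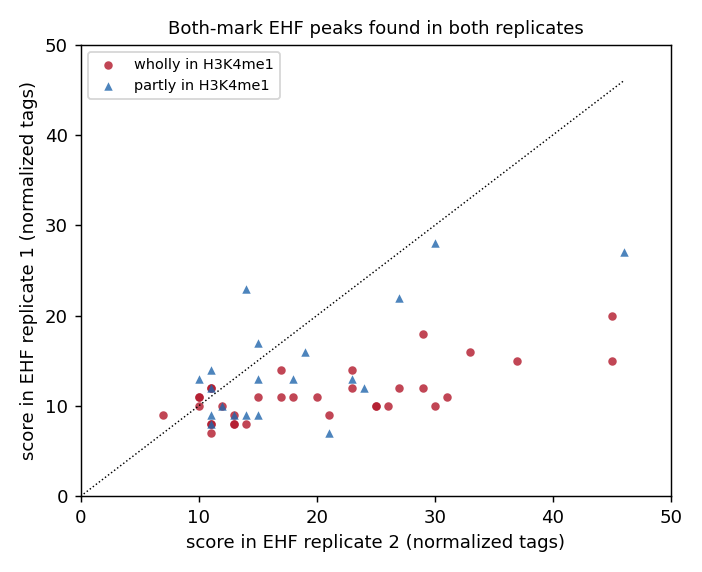
Replicate 1 score against replicate 2 score (both in normalized tags) for the 54 both-mark EHF peaks found in both lists, as circles where the peak lies wholly in H3K4me1 and triangles where it straddles the edge, with a dotted line at equal scores. Most points lie below the line, as 43 of the 54 scored higher in replicate 2.

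The both-mark peaks with the highest scores show both kinds of placement. The strongest, at chr8:37749531-37749655, scored 46 in replicate 2 and 27 in replicate 1. Its H3K27ac region spanned 2751 bp, and it touched H3K4me1 by 29 bp only, and another H3K4me1 region began 516 bp away on its other side, so the peak sat in a gap between 2 marked shoulders. The peak at chr3:177246402-177246526 scored 45 and 20. It lay the other way, 1091 bp inside an H3K4me1 region of 2225 bp that nearly matched its H3K27ac region of 2239 bp. The peak at chr11:28780983-28781107 scored 45 and 15 and lay 497 bp inside an H3K4me1 region of 1313 bp, 1 of 3 within an H3K27ac region of 6270 bp.

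Other high-scoring peaks lay well inside H3K4me1 regions, though not always near the middle. The peak at chr15:74281810-74281934 scored 37 and 15, 992 bp inside an H3K4me1 region of 2178 bp. The peak at chr7:17409755-17409879 scored 33 and 16, 1280 bp inside one of 3628 bp. The peak at chr5:162834444-162834568 scored 31 and 11, 495 bp inside one of 1301 bp. The first 2 of these lie in the interior zones of the density profile, 500 bp or more from the edge.

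Others lay nearer to an edge. The peak at chr3:185069760-185069884 scored 30 and 28, nearly alike in both replicates, and met by 41 bp an H3K4me1 region of 501 bp. The peak at chr16:84652588-84652712 scored 27 and 22 and met another of 501 bp by 79 bp. The peak at chr7:44678882-44679006 scored 30 and 10, 193 bp inside an H3K4me1 region of 1337 bp, and its centre was 1 bp from that of its replicate 1 peak. The peak at chr14:62028775-62028899 scored 29 and 18, and its H3K27ac region of 14802 bp held 6 H3K4me1 regions.

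A high score did not always recur. The fourth-ranked peak, at chr5:127266165-127266289, scored 39 and was not found in replicate 1, although it lay 785 bp inside an H3K4me1 region of 1706 bp. The peak at chr6:39165406-39165530, with a score of 32 and 17 bp of H3K4me1, and the peak at chr5:76084440-76084564, with a score of 29, were not found either. With one at chr7:2570376-2570500, which scored 27 and was added after its value was seen, these are the 4 of 20 both-mark peaks with a score of 24 or more that were missing from replicate 1.

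Applied to replicate 1, the same rule gave 113 of 1536 peaks, or 7.36% (exact 95% interval 6.10% to 8.78%). Replicate 1 peaks are 151 bp long and replicate 2 peaks 125 bp, so an overlap of 1 bp is easier to meet in replicate 1. The shares of the 2 lists are therefore not strictly alike in measure. Of these, 53 met a both-mark peak of replicate 2, which is 46.9% of the replicate 1 set and 18.2% of the replicate 2 set. A further 6 met another replicate 2 peak, and 54 met none. Of the 59 replicate 1 both-mark peaks that met a replicate 2 peak, nearly all thus met a both-mark one, while 54 were called in replicate 1 alone. Both lists were classed by the same mark regions, and overlapping peaks lie on nearly the same bases. Their shared class was therefore largely fixed in advance and is no measure of agreement between replicates.

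The number of both-mark peaks varied between chromosomes. Chromosome 5 held the most, with 35, and 9.28% of its replicate 2 peaks (6.55% to 12.7%) and 9.45% of its replicate 1 peaks (4.98% to 15.9%) met both marks. The shares were 10.1% and 11.4% on chromosome 8, 12.7% and 6.45% on chromosome 22, and 4.79% and 5.41% on chromosome 3, in replicate 2 and in replicate 1. Chromosome 4 had 1 both-mark peak among 112 in replicate 2 and 0 of 29 in replicate 1. Chromosome 9 had 1 among 104 in replicate 2 but 2 of 30 (6.67%) in replicate 1, close to the 7.36% over all chromosomes. Chromosome 13 had 0 of 33 peaks, which allows a share of up to 9.09%. Per Mb of DNA with both marks, chromosome 20 held 70.2 both-mark peaks, chromosome 17 held 48.5, chromosome 22 held 48.1, chromosome 16 held 46.6 and chromosome 5 held 44.6. Chromosome 9 held 3.77 and chromosome 4 held 3.41. Chromosomes 13 and 21 held 0, on 0.049 and 0.078 Mb of such DNA. These values count every both-mark peak, including those centred outside a mark. Taken over all chromosomes, they are therefore higher than densities of peak centres would be, since 219 of all 291 both-mark peaks had their centre in both marks. The copy number of these chromosomes in Calu-3, which affects the tags of every library, was not tested.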

How the data were processed

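ChIP-seq intervals of Calu-3 cells were taken from 4 deposited lists. Bowtie 1.0.0, HOMER 1.2 and the build hg19 are named in the submitters' processing notes. Intervals were called library by library with findPeaks of HOMER, per the file headers, using its factor style (EHF) or histone style (marks) at a false discovery rate of 0.01, 4-fold over input and over the surrounding 10 kb (Poisson p of 1e-04). The last rule removes broad EHF signal, and stitching sets the width of mark regions, so a missing interval only failed these rules. The deposited score is the authors' normalized tag count, scaled to 10000000 tags and written as whole numbers. Scores were ranked within a list. Between the EHF lists they were set side by side on the authors' scaling, which does not adjust for the share of tags in peaks or for the peak length.

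Overlap meant at least 1 bp. Densities count peak centres on the union of mark regions, except those by chromosome, which count all both-mark peaks. Python 3.11.15, numpy 2.4.6, pandas 2.3.3, scipy 1.17.1, statsmodels 0.14.6 and matplotlib 3.10.9 gave exact binomial, Newcombe, exact Poisson and exact conditional 95% intervals, with no p-values. The interval code was tested on simulated data. Members, classes and alternatives were chosen with earlier results of these data known, and the densities and zones after the lists were seen. Named peaks are the 12 highest-scoring both-mark peaks and the 8 with the best mean rank in both EHF lists. The regions holding most both-mark peaks, at most 5 per mark, are in the closing section. The input libraries were not analysed here.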

Additional observations from a re-analysis of the deposited data

How the results depend on the processing

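Of 40 alternative values, 31 kept their direction and side of the threshold or stayed within the main interval or 1.5 times the main count. The number of both-mark peaks (291) was 183 with the whole peak inside both marks, 172 with scores of at least 12, 176 with mark regions at or above the median score per kb, and 113 without replicate 2, that is, by the rule on replicate 1. The recurrence difference from peaks in H3K27ac without H3K4me1 turned to -0.19 points with centres inside both marks and to -1.08 points with scores of at least 12, within an interval that included 0 throughout. The difference from peaks in neither mark was 5.97 points with scores of at least 12, its interval then including 0. The cause was not tested. The median distance inside the H3K4me1 edge (238 bp) was 137 bp over all both-mark peaks, which adds centres outside the region, and 644 bp after joining mark regions with gaps of 1000 bp or less, which widens them. The density ratio ranged from 0.36 to 0.57 in replicate 2 and from 0.42 to 0.80 in replicate 1, highest in both with joined regions, and its interval in replicate 1 stayed below 1. The density alternatives and those without chromosome 5 were chosen after seeing the data. The alternatives on gene starts and sequence were not run. In replicate 1, 0.155% of tags lay in peaks; whether this bears on recurrence was not tested. No paired analysis was possible because only the EHF and input libraries share replicate numbers and the inputs have no list here.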

Other observations

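Both-mark peaks that shared their H3K27ac region with another replicate 2 peak were rarely found in replicate 1. Of 46 such peaks 2 were found, or 4.35% (exact 95% interval 0.53% to 14.8%), against 52 of 245 peaks alone in their region, or 21.2% (16.3% to 26.9%), a difference of -16.9 points (Newcombe 95% interval -23.3 to -5.68). The median score was 12 in both groups, but their H3K27ac regions differed. The median width was 4817.5 bp for sharing peaks and 2108 bp for sole ones, and the median score per kb was 76.5 and 38.6. The interval treats peaks as independent, although some of the sharing peaks lie in the same region. Among peaks in H3K27ac without H3K4me1 the shares were 17.7% of 355 and 17.8% of 2663, a difference of -0.05 points (-3.97 to 4.48). This split was 1 of 8 looked at, chosen after the values were seen, and the difference between the classes was not tested.

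In 7 H3K27ac regions 2 both-mark peaks were found, and none of these 14 peaks recurred in replicate 1. These 14 are part of the 46 sharing peaks above, of which 2 were found, so this is not a separate result. The widest, at chr20:56258787-56290172, had both-mark scores of 14 and 12 and held 9 replicate 2 peaks and 6 H3K4me1 regions. The region at chr8:142285847-142290565 had scores of 21 and 14, with centres 2001 bp apart. The one at chr8:32741164-32744000 had scores of 12 and 11, with centres 2244 bp apart. At chr7:2567713-2571002 the scores were 11 and 27, 983 bp apart, and at chr22:46314009-46317132 they were 15 and 11, 512 bp apart. In 4 H3K4me1 regions 2 both-mark peaks were found. Besides the H3K4me1 regions at chr7:2564165-2570575 and chr22:46314148-46316583, which hold the pairs just given, these were at chr5:150472512-150475968, with scores of 11 and 8, and at chr3:194459213-194462640, with scores of 12 and 23.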
